A study of Homo sapiens and Mus musculus with 4 samples.

Results

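The 10 genes VEGFA, SLC2A1, HK2, PFKFB3, PFKFB4, PGK1, PKM, LDHA, PDK1 and BNIP3 serve glucose use and the response to low oxygen, and ATF4 peaks at and around them are described here. The genes were chosen by name, with earlier results of these data known, so their shares below are not those of an unselected set. A peak was counted for a gene where it shared at least 1 base with the gene span plus 10 kb on each side. The 10 genes are 10 of the 20037 protein-coding genes that could be placed on chromosomes. In KG1a cells, an established human line from acute myeloid leukaemia that was kept in 20% fetal bovine serum, 3 of the 873 ATF4 peaks lay in these windows. In bone marrow cells of C57BL/6 mice only Vegfa could be placed, and 1 of the 83088 peaks lay in its window. Each cell source gave 1 ATF4 ChIP library and 1 input library without antibody, with no genetic change or treatment named in the labels. With 1 ChIP library a source there is no replicate error, and every comparison below is a description with no test. Sequencing depth is unknown, and the lists carry no peak height, so a gene without a listed peak is a gene without a call at this depth.

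Glycolysis splits glucose into pyruvate in the cytosol and yields energy without oxygen. When oxygen falls, the HIF factors are stabilised and raise the genes for glucose entry, for most glycolytic steps, for lactate formation and for vessel growth, and they hold pyruvate back from mitochondria. Blood stem cells in marrow are known for their reliance on glycolysis. ATF4 is a factor of the amino acid and unfolded protein stress responses, binds composite C/EBP-ATF elements together with C/EBP proteins, and is known to induce VEGFA under stress.

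The peaks met these genes inside their spans or upstream of them and not at a listed start. HK2 and PDK1 each had 1 KG1a peak inside the gene, and PFKFB4 had 1 just outside the 5′ end of its span. VEGFA, SLC2A1, PFKFB3, PGK1, PKM, LDHA and BNIP3 had none in the window. A peak was thus counted for 3 of 10 genes, where 3.15% of all protein-coding genes (632 of 20037) had one under the same rule. Of the 9 genes with a start in the RefSeq promoter table, 0 had a peak within 1 kb of one, where 0.511% of 15843 protein-coding genes had one. VEGFA had no entry in that table. With such a low background, 0 of 9 shows no deficit.

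The PFKFB4 peak also lies at the listed start of a neighbouring gene. The peak spans chr3:48563662-48563975 (GRCh38), is 314 bp wide and lies 526 bp beyond the high-coordinate end of the PFKFB4 span. PFKFB4 is read from the minus strand, so this is its upstream side and the 5′ end of its span. That end, at 48563136, lies upstream of the only PFKFB4 start in the promoter table, at 48556803. The peak is within 1 kb of the 5′ end of the span, yet counts as distal because only listed starts define promoters. Which PFKFB4 models begin at that end was not analysed here. The peak centre lies 7.02 kb upstream of the PFKFB4 start in the promoter table, but 37 bp from the listed start of UCN2, which encodes the peptide hormone urocortin 2 and overlaps the PFKFB4 span. COL7A1, the gene of the collagen of skin anchoring fibrils, ends 98 bp from the peak. The list alone cannot say to which of these genes the peak belongs. The 250 bases before the UCN2 start are printed below (RefSeq, GRCh38.p14, 5′ to 3′ in the direction of the gene), because 194 of them, in capitals, lie under the peak.
UCN2, chr3:48563782-48564031, minus strand: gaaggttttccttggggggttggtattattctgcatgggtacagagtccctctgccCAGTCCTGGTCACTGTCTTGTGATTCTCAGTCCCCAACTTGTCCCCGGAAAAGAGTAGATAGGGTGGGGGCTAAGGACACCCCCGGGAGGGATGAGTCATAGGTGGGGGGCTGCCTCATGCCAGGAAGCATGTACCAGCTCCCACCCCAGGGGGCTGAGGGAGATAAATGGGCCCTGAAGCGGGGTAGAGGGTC

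Promoters of the members differ in the elements they hold. Shown are the promoter of PFKFB4, which holds none of the letters searched, both of HK2, the second of PDK1 and the first of LDHA. The first PDK1 promoter, with 35.6% GC, and the second LDHA promoter, with 64.8% GC, hold none of the letters and are not printed. Both strands were searched. The capitals mark ACGTG, the core of the hypoxia response element, and TGACGTCA, the cAMP response element to which ATF and CREB factors bind. The other letters searched, TGATGNAAT and TTGCATCA, are spellings of the C/EBP-ATF element. Sequences are the 250 bases before each start (RefSeq, GRCh38.p14).
PFKFB4, chr3:48556804-48557053, minus strand: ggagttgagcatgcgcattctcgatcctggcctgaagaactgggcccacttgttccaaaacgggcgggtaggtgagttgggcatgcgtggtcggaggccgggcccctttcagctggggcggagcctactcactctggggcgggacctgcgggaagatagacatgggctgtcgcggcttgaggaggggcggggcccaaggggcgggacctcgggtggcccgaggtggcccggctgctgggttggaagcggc
HK2, first listed start, chr2:74833877-74834126, plus strand: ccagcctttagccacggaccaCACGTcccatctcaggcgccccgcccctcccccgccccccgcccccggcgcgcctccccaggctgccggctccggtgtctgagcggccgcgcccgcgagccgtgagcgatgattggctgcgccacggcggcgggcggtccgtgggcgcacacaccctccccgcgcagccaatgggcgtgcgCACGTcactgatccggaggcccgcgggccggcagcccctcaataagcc
HK2, second listed start, chr2:74834920-74835169, plus strand: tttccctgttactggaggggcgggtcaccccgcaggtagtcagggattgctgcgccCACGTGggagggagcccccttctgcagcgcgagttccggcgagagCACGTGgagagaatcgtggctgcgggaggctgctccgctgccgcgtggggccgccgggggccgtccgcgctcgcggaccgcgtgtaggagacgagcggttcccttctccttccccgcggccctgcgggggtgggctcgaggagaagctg
PDK1, second listed start, chr2:172555840-172556089, plus strand: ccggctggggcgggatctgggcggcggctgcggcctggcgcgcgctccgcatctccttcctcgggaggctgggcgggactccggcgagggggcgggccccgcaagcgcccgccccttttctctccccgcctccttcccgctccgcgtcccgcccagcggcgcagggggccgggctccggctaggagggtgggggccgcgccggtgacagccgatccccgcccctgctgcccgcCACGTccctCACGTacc
LDHA, first listed start, chr11:18394313-18394562, plus strand: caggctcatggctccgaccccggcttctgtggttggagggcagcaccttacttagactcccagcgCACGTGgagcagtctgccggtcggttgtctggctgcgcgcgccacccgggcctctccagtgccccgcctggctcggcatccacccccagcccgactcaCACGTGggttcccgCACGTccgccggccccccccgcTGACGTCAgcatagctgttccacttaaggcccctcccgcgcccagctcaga

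The hypoxia core was found in 7 of 13 promoters of the members, which belong to 6 of the 9 genes, and in 20.2% of all 22199 promoters of protein-coding genes. HK2, PFKFB3, PGK1, LDHA, PDK1 and BNIP3 held it, while SLC2A1, PFKFB4 and PKM did not within these bases. The genes were picked as hypoxia targets, so this share is not independent of the choice. The members' promoters had a median GC content of 71.6%, against 62.0% over all promoters. Among promoters of at least 70% GC, 6 of 8 member promoters held the core, against 20.8% of 5805. Below 70% GC, 1 of 5 member promoters held it, against 19.9% of 16394. That 1 is the first LDHA promoter, just under the limit with 69.6% GC, and the 6 above include both HK2 promoters. The limit of 70% was not planned in advance, and whether GC content bears on the share was not tested. Several matches in HK2, PFKFB3, LDHA and BNIP3 are a palindrome, CACGTG, that counts once on each strand and is also the E-box read by MYC and USF factors.

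Neither spelling of the C/EBP-ATF element was found in the 13 member promoters or in the UCN2 promoter. The part of the PFKFB4 peak past the UCN2 start was not searched. Over all promoters TGATGNAAT was found in 0.577% and TTGCATCA in 0.595%. In the 54 promoters of protein-coding genes that a KG1a peak overlapped, TTGCATCA was found in 4, or 7.41%, and TGATGNAAT in 1, or 1.85%. The hypoxia core was found in 9 of the 54, or 16.7%, against 20.2% of all promoters. The full cAMP response element stood in 1 member promoter, that of the first LDHA start, with its first base 51 bp before the start. It was found in 2.01% of all promoters and in 1 of the 54 overlapped by a KG1a peak, or 1.85%. No KG1a peak lay at that LDHA promoter.

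**Figure D1:**
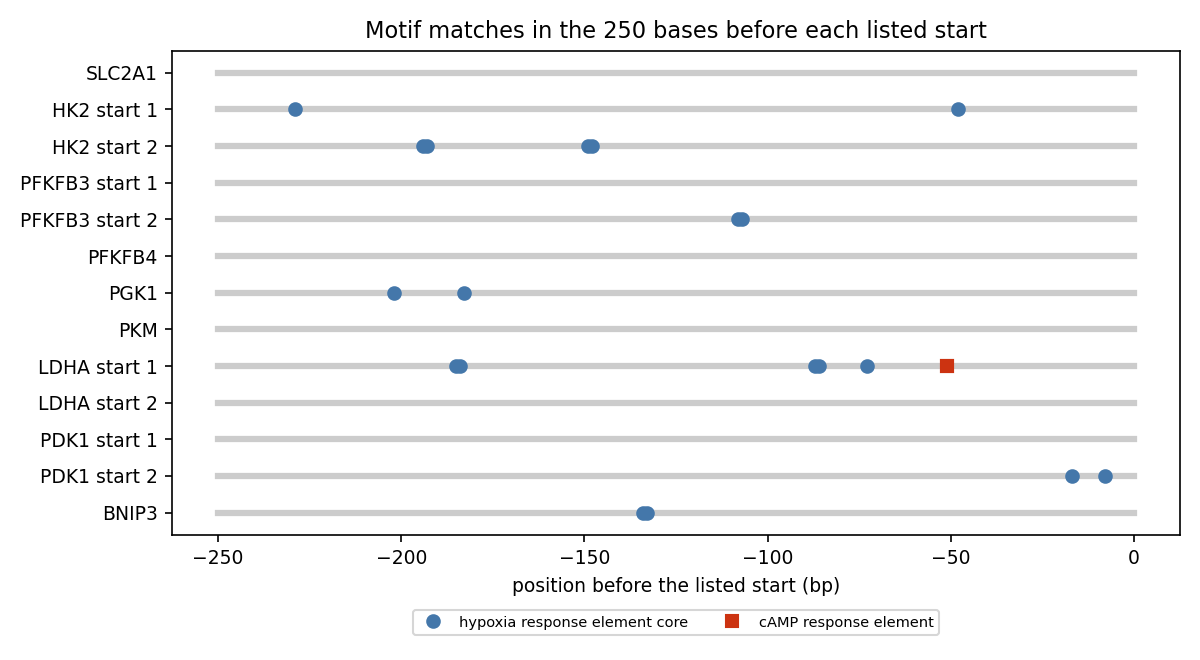
Matches to the hypoxia response element core (blue circles) and the cAMP response element (red square) in the 250 bases before each listed start; the x axis is the position before the start in bp, and each row is 1 of 13 promoters of 9 genes. The core stands in 7 promoters, and the cAMP response element in the LDHA promoter alone among the 13.

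Glucose enters the cell through SLC2A1, the transporter GLUT1 (gene ID 6513, chromosome 1, 42925353 to 42958868, minus strand). Its nearest KG1a peak, chr1:42909102-42909420, was 319 bp wide and lay 15.9 kb downstream of the gene. This is outside the window of 10 kb and inside one of 25 kb. No RefSeq gene lay within 1 kb of that peak, and SLC2A1 was the only protein-coding gene within 50 kb of it. Of all genes, 3.70% had a nearer peak.

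HK2 encodes hexokinase 2, which phosphorylates glucose and traps it in the cell (gene ID 3099, chromosome 2, 74834127 to 74893359, plus strand). Its peak, chr2:74866820-74867192, was 373 bp wide, wider than 75.7% of the list, whose median was 341 bp. The centre lay 32.9 kb from the low-coordinate end of the gene and 31.8 kb downstream of the nearer of its 2 listed starts. No other gene of the RefSeq table overlapped the peak or lay within 1 kb of it. The peak stood in place 47 of 873 in the deposited order, and the next peak along the chromosome lay 326 kb from the gene. Whether the peak falls in an exon or an intron was not analysed here, as the gene table gives spans without exons.

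PFKFB3 and PFKFB4 make and remove fructose 2,6-bisphosphate, which speeds up phosphofructokinase. The pair differed. PFKFB4 (gene ID 5210, chromosome 3, 48517684 to 48563136) had the peak at UCN2 described above, in place 689 of the list and wider than 8.59% of it. The next peak lay 216 kb away. PFKFB3 (gene ID 5209, chromosome 10, 6144921 to 6326637, plus strand) had the longest span of the members, 182 kb, and yet its nearest peak lay 4.83 Mb upstream, inside ADARB2. Of all genes, 89.9% had a nearer peak than PFKFB3.

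PGK1, PKM and LDHA act in the lower part of glycolysis and in lactate formation. None of these 3 genes had a peak in its window, where 1.37% of genes with windows of 20 to 40 kb (the class of LDHA) and 3.16% of those of 40 to 80 kb (PGK1 and PKM) had one, so 0 of 3 shows no deficit. PGK1 encodes phosphoglycerate kinase 1, which makes the first ATP of the pathway (gene ID 5230, chromosome X, 78104248 to 78129295). Its nearest peak lay 10.9 Mb away, the farthest of the members, on a chromosome with 9 KG1a peaks in all. PKM encodes the muscle-type pyruvate kinase, the last enzyme of glycolysis (gene ID 5315, chromosome 15, 72199029 to 72231591). Its nearest peak lay 1.04 Mb upstream, inside NEO1. LDHA encodes the lactate dehydrogenase subunit that favours lactate (gene ID 3939, chromosome 11, 18394563 to 18408425). Its nearest peak, chr11:18521535-18521878, lay 113 kb downstream, inside TSG101, a gene of endosomal sorting, and 10.9% of all genes had a nearer peak.

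PDK1 encodes pyruvate dehydrogenase kinase 1, which switches off the enzyme that feeds pyruvate to mitochondria (gene ID 5163, chromosome 2, 172555373 to 172724312, plus strand). Its peak, chr2:172653792-172654154, was 363 bp wide, stood in place 719 of the list and was centred 97.9 kb downstream of the nearer of 2 listed starts. The span of 169 kb covers all RefSeq models of the gene, of which 2 coding transcripts are curated and 10 predicted. Which of the models reach the peak was not analysed here. The next peak lay 4.24 Mb from the gene. BNIP3 encodes a mitochondrial outer membrane protein of mitophagy (gene ID 664, chromosome 10, 131967684 to 131981923). Its nearest peak lay 795 kb upstream, inside INPP5A.

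VEGFA encodes the main growth factor for blood vessels (gene ID 7422, chromosome 6, 43770211 to 43786487). No KG1a peak lay in its window. The nearest, chr6:43725053-43725430, lay 44.8 kb beyond the low-coordinate end and outside every gene of the RefSeq table. It was 378 bp wide, wider than 78.4% of the list, and stood in place 31 of 873. MRPS18A, a mitochondrial ribosomal protein gene, lay closer to it than VEGFA, at 37.3 kb. Of all genes, 5.82% had a nearer peak than VEGFA.

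**Figure D2:**
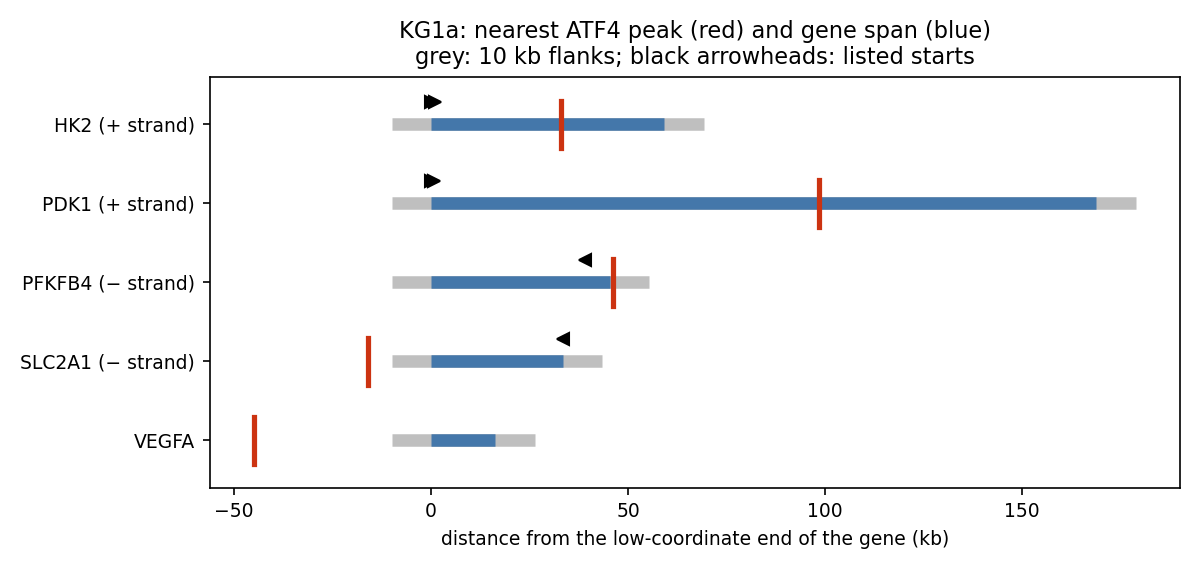
Spans of 5 members (blue) with flanks of 10 kb (grey), listed starts (black arrowheads) and the nearest KG1a peak (red bar); the x axis is the distance from the low-coordinate end of each gene in kb. The peaks of HK2 and PDK1 lie well inside the gene, that of PFKFB4 at the edge of the span, and those of SLC2A1 and VEGFA outside the flanks.

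Distances to the nearest peak differed widely among the members. The gap was 0 for HK2 and PDK1, 0.526 kb for PFKFB4, 15.9 kb for SLC2A1, 44.8 kb for VEGFA, 113 kb for LDHA and 795 kb for BNIP3. It was 1.04 Mb for PKM, 4.83 Mb for PFKFB3 and 10.9 Mb for PGK1. The median gap of the 10 genes was 78.9 kb, and that of 19974 protein-coding genes was 961 kb, with a middle 50% from 355 to 2290 kb. Genes on chromosome Y, which held no peak, are left out of that number. The windows of the members covered 0.791 Mb and held 3 peaks, or 3.79 a Mb, against 0.360 a Mb over the windows of all protein-coding genes. The first density rests on 3 peaks, and the members were chosen with earlier results of these data known.

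**Figure D3:**
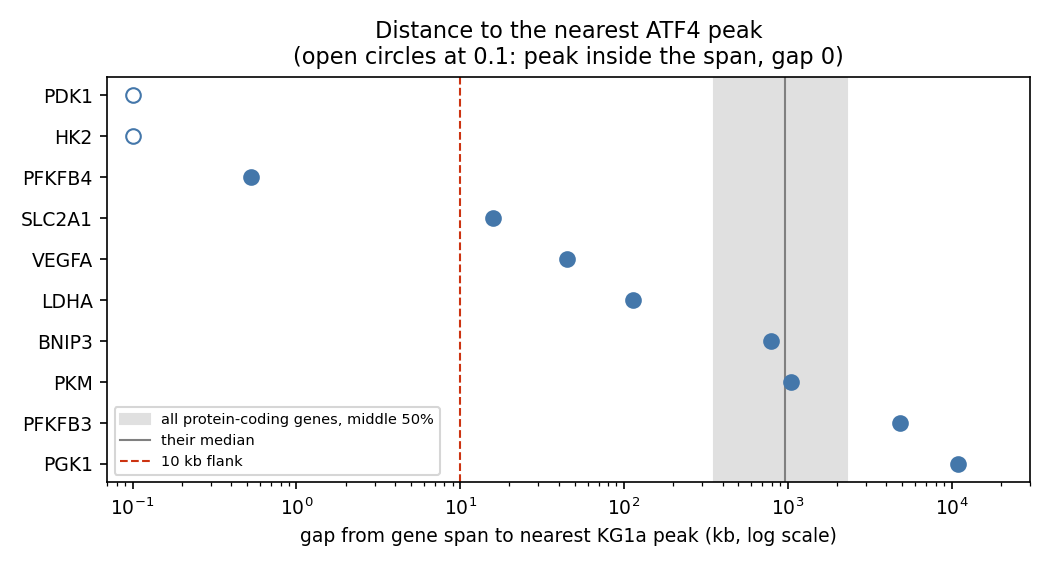
Gap between each gene span and its nearest KG1a peak in kb on a log axis, with the middle 50% (grey band) and the median (grey line) of all protein-coding genes; open circles mark a peak inside the span. HK2, PDK1, PFKFB4, SLC2A1, VEGFA and LDHA lie below the band, and PFKFB3 and PGK1 above it.

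Long genes hold a peak more often, so the length of each window stands beside its result. HK2, with a window of 79.2 kb, and PFKFB4, with 65.5 kb, were 2 of the 5 members with windows of 40 to 80 kb. In that class 3.16% of 5635 genes had a peak. PDK1, with 189 kb, was 1 of 2 members of 160 to 320 kb, where 6.74% of 1453 genes had one. VEGFA, LDHA and BNIP3, with windows of 20 to 40 kb, had none, where 1.37% of 9023 genes had one. The choice of flank sets the count as well. With no flank 2 of 10 members had a peak, against 2.26% of all genes, and PFKFB4 dropped out. With 5 kb the count was 3 of 10 against 2.77%, with 25 kb it was 4 of 10 against 4.33%, SLC2A1 being the addition, and with 50 kb it was 5 of 10 against 6.25%, VEGFA being the addition. Counted within 1 kb of either gene end, which needs no strand, 1 of 10 members had a peak, PFKFB4, against 0.564% of all genes. By position, the 3 peaks fell 2 inside and 1 distal. Over all pairs of a peak and a protein-coding gene with a listed start, 60.0% were inside, 24.9% distal and 15.1% at a promoter.

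**Figure D4:**
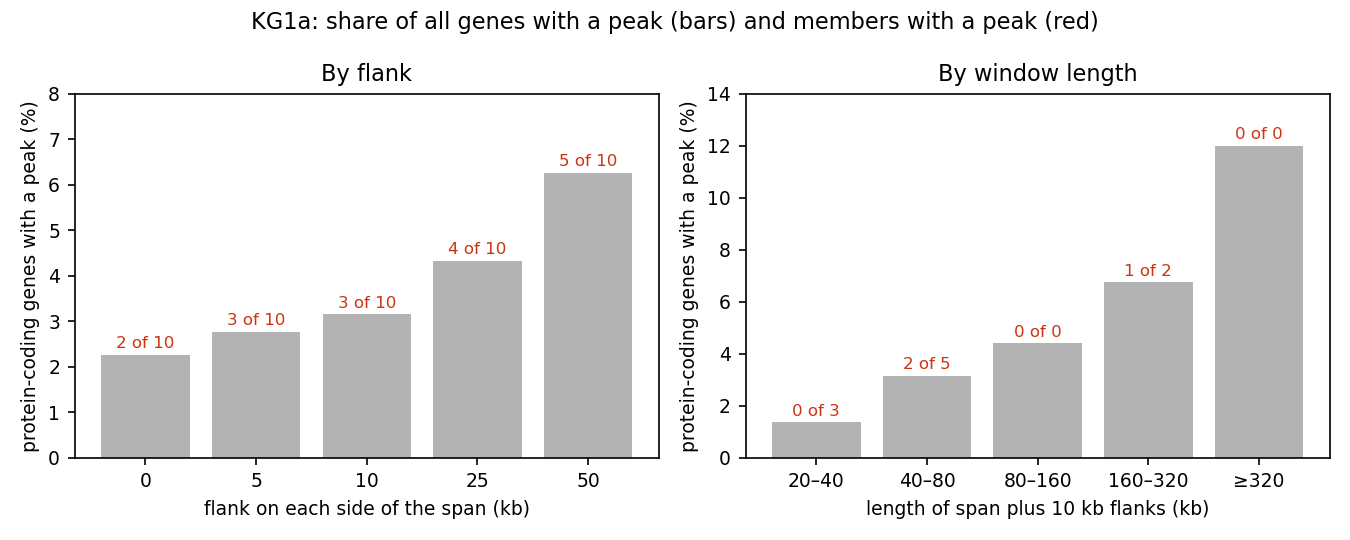
Share of all protein-coding genes with a KG1a peak in % (bars) by the flank added to the span (left) and by window length at a flank of 10 kb (right); red labels give the members with a peak and the members in each class. The members' count goes from 2 of 10 with no flank to 5 of 10 with 50 kb, while the share of all genes goes from 2.26 to 6.25%.

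Other genes of the same pathways had a listed peak at a share near that of all protein-coding genes. Of 55 further genes in 5 lists, 1 had a KG1a peak in its window. Of the 44 with a start in the promoter table, 0 had a peak within 1 kb of one, where 0.511% of protein-coding genes did. By list, those with a peak in the window were 0 of 14 glycolysis genes and 0 of 7 genes of glucose and lactate transport. The count was 0 of 7 for PFKFB and PDK relatives, a list that includes the phosphatases that oppose the PDK enzymes. It was 0 of 19 for other hypoxia targets and 1 of 8 for VEGF ligands and receptors. The 1 gene was FLT1, which encodes the VEGF receptor 1 (chromosome 13, 28300346 to 28495128, minus strand). Its peak, from 28347853 to 28348188, was 336 bp wide and centred 147 kb downstream of the listed start, in a gene of 195 kb. Of genes with windows of 160 to 320 kb, the class of FLT1, 6.74% had a peak. The median gap of the 55 genes was 1130 kb, against 961 kb over all protein-coding genes. The share of 1 in 55 is near the background of 3.15%.

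In mouse bone marrow a peak lay at Vegfa. No mouse gene annotation was used here. The place of Vegfa was taken from an approximate position in GRCm38, chromosome 17 from about 46.02 to 46.03 Mb, and the other 9 mouse genes were not analysed here. In the window of 30 kb from 46.01 to 46.04 Mb lay 1 peak, chr17:46024302-46024600, inside the approximate span. Whether it lies at the promoter or deeper in the gene cannot be read from a position this coarse. Of 90584 tiles of 30 kb along the mouse chromosomes, 43.2% held at least 1 peak and 19.3% held exactly 1, so a peak in a window of this size is common in this list. The tiles include the unassembled chromosome ends, which lowers these shares.

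The Vegfa peak was small and set apart from its neighbours. It was 299 bp wide, where the median of the list was 544 bp and 10.4% of peaks were narrower. The nearest peaks lay 21.7 kb away on the low-coordinate side and 58.4 kb away on the high-coordinate side. Of 82951 mouse peaks with a neighbour on each side, 14.2% had both gaps at least as wide as the smaller of these. The region around was dense: 20 peaks lay within 100 kb of the approximate span, 14 on the low side and 5 on the high side of the Vegfa peak, where the median tile of the same 210 kb held 6 and 97.9% held fewer than 20. These 20 peaks had a median width of 1140 bp, and 4 were wider than 2 kb. The widest, 7978 bp, ran from 45930021 to 45937998, and one of 6512 bp ran from 46082972 to 46089483. The Vegfa peak was the narrowest of the 20.

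The Vegfa peak stood in place 815 of 83088 in the deposited order. Of the first 1000 places, 13 held a peak of 299 bp or less, or 1.30%, against 10.7% of the whole list. The files do not say what the order stands for. Side by side, the mouse list had a peak at Vegfa itself and the KG1a list had its nearest peak 44.8 kb from VEGFA. The lists differ in species, number of peaks and unknown depth, and the difference at this gene was not tested.

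**Figure D5:**
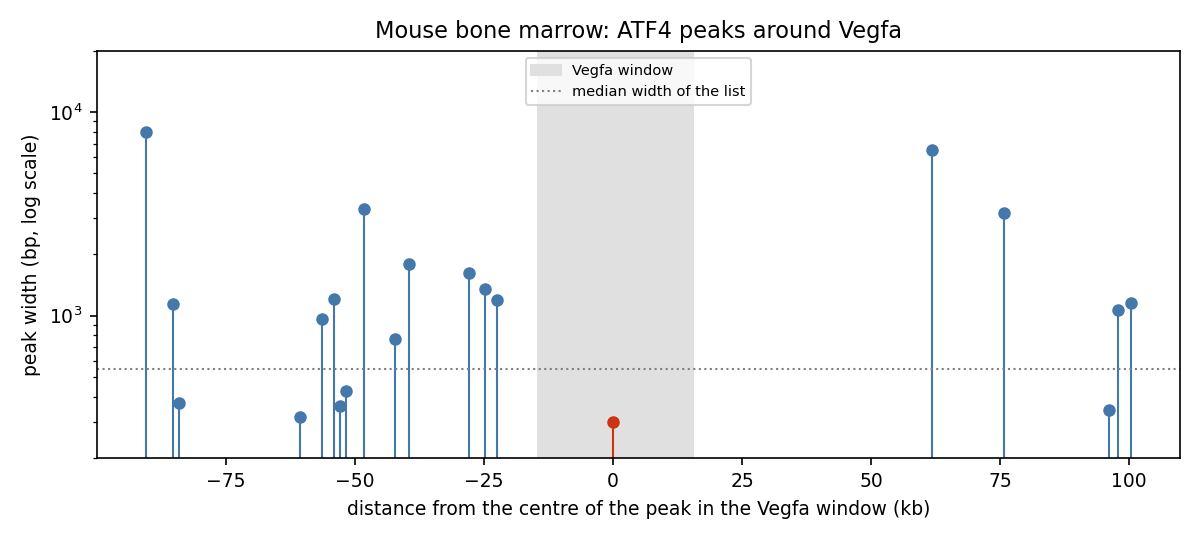
Mouse bone marrow ATF4 peaks within 100 kb of the approximate Vegfa span; the x axis is the distance from the centre of the peak in the Vegfa window in kb, the y axis the peak width in bp on a log scale, the grey band the window of 30 kb and the dotted line the median width of the list. The Vegfa peak (red) stands alone in its window at 299 bp, with 19 further peaks on both sides.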

How the data were processed

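ATF4 ChIP-seq was made with 1 ChIP and 1 input library for each of KG1a cells and mouse bone marrow cells. CASAVA 1.4, Bowtie2, MACS2 and deepTools, and the builds GRCh38 and GRCm38, are named per the submitters' processing notes, without settings or a peak threshold. The authors deposited 1 list per source with 3 columns (chromosome, start, end), with no score, and the labels name each list as ChIP against input. Other units do not occur. Starts were read as counted from 0 and are printed counted from 1.

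KG1a peaks were placed against RefSeq gene spans and promoters of GRCh38.p14, a patch of GRCh38 with the same chromosome positions. Strand and starts came from the promoter table, which matched 9 of the 10 members. All 55 further symbols matched. A peak within 1 kb of a listed start counted as promoter, otherwise as inside or distal within 10 kb. The background is the same count over all protein-coding genes. The members, lists and alternatives were chosen with earlier results of these data known. The text names all members, each further gene with a KG1a peak in its window, and close neighbours of a member's peak or nearest peak. Close means that a protein-coding gene overlaps that peak or ends within 1 kb of it. MRPS18A, 37.3 kb from the peak nearest to VEGFA, was named beyond this rule, and other neighbours at such distances were not. No test was run. Python 3.11.15, numpy 2.4.6 and matplotlib 3.10.9 were used, and the overlap code was tested on simulated data with peaks planted at the window edges of 200 genes, with 0 errors.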

Additional observations from a re-analysis of the deposited data

How the results depend on the processing

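The count of 3 members with a KG1a peak became 2 with no flank, where PFKFB4 left, 3 with 5 kb, 3 with the peak centre in the window and 4 with 25 kb, where SLC2A1 entered. It fell to 1 member and 1 peak, HK2, both in the widest 25% of the list and in the first 25% of its deposited order, where 0.868 and 0.923% of all genes had a peak. With a flank of 50 kb, chosen after the data were seen, it was 5 members and 5 peaks, with VEGFA added. The 0 promoter peaks stayed at 0 with 500 bp, with 2.5 kb, with the peak centre and in both parts of the list. With 1 kb around either gene end, also chosen after the data were seen, the count was 1, PFKFB4, against 0.564% of all genes. In mouse the Vegfa window held 4 peaks with a flank of 25 kb, 10 with 50 kb and 0 in the widest 25% of the list, where the gene no longer counts. It held 1 with no flank, with 5 kb, with the peak centre, in the first 25% of the list and after merging peaks under 1 kb apart. The mouse promoter count and its alternatives were not run, as they need the start of each gene. The lists hold no depth, so weak binding under the unknown threshold cannot be seen. No paired analysis was possible because each group has 1 library.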

Other observations

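The UCN2 promoter under the PFKFB4 peak holds 1 match to TGAGTCA, the AP-1 element, with its first base 102 bp before the listed start. These letters were searched after the sequence had been read. On both strands they were found in 0 of the 13 member promoters, in 3.45% of all 22199 promoters of protein-coding genes and in 3 of the 54 promoters overlapped by a KG1a peak, or 5.56%.

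Of the 54 further pathway genes without a peak in the window, ALDOC, which encodes a fructose-bisphosphate aldolase, lay closest to one. Its gap was 11.0 kb, just outside the window of 10 kb. DDIT4, an inhibitor of MTORC1 signalling that responds to hypoxia and stress, followed at 25.1 kb. Both were singled out after their values were seen.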
